A study of Mus musculus with 6 samples.

Results

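C-type lectin receptors are surface proteins through which neutrophils and other myeloid cells recognise fungal, mycobacterial and self ligands. The genes described are 7 receptors (Clec4d, Clec4e, Clec4n, Clec7a, Clec5a, Clec12a and Clec4a2) and the 2 adaptor genes Fcer1g and Tyrobp, which were taken by name and found in the count table by gene identifier. All 9 were present among the 55487 rows, and all 9 were among the 15774 genes that passed the filter on low counts. RNA was sequenced from neutrophils sorted as Ly6G-positive cells from perfused, digested mouse lungs. The 3 mutant libraries came from Mrp8-Cre;TGFbR2-fl/fl mice, which carry loxP-flanked Tgfbr2 and the S100A8-cre,-EGFP transgene. The 3 wt libraries came from Cre-negative TGFbR2-fl/fl littermates, so the groups differ in the transgene as well as in the targeted receptor gene, and both carry the floxed allele. The transgene is Tg(S100A8-cre,-EGFP)1Ilw, kept on a B6.Cg background, and the floxed allele is Tgfbr2tm1Karl, from B6;129 mice. The labels used here give no age. The Mrp8 (S100A8) promoter is known to be active mainly in granulocytes and in part in other myeloid cells. Per the design there were 3 mice in each group. However, the labels do not say which mouse gave which library, and a p-value here reflects only how much these 6 libraries differ, which may be technical.

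The receptors fall into activating and inhibitory kinds. Activating receptors signal through an immunoreceptor tyrosine-based activation motif (ITAM), which lies in a separate adaptor for most of them: the Fc receptor gamma chain, encoded by Fcer1g, or DAP12, encoded by Tyrobp. Phosphorylated ITAMs recruit the kinase SYK, and signals pass through the CARD9, BCL10 and MALT1 complex to NF-kB and cytokine genes. Inhibitory receptors carry an inhibitory motif (ITIM) in their own tail, which recruits the phosphatases SHP-1 and SHP-2.

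Library totals ran from 30403494 to 35906780 counts, so that 3 counts in a library corresponded to 0.0829 to 0.102 CPM (a gene's counts relative to its library's total, scaled by the TMM method, on the usual CPM scale), a limit that covers counting error only. Tgfbr2 was at 176 to 205 CPM in the 6 libraries and its groups overlapped; the count pools all exons of the gene and does not check the deletion. The 12 neutrophil markers summed to 31779.7 to 39480.4 CPM in the mutant and 32765 to 34639 CPM in the wt libraries. Of the 12, DESeq2 called 1 higher in mutants (Il1r2) and 2 lower (Cxcr2 and S100a8), beside 0.514% and 0.469% of all tested genes. The groups did not overlap for these genes, and edgeR called 0 of the 12 (lowest adjusted p = 0.294). Libraries differed in ways that touched the genes described. The wt replicate 3 library had the lowest CPM of the 6 for 6 of the 7 receptors, the exception being Clec7a. Mutant replicate 2 had the highest CPM of both adaptors. The shares of all tested genes with these patterns were not counted, so neither is shown to be particular to the genes described.

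Each of the 7 receptor genes lies on chromosome 6 (GRCm38, GENCODE M21). Clec4a2 (123106428 to 123143999, plus strand), Clec4n (123229843 to 123247021, plus), Clec4d (123262111 to 123275265, plus) and Clec4e (123281789 to 123289870, minus) lie in the Dectin-2 gene cluster. Clec4d and Clec4e point towards each other across a gap of 6523 bases. Clec12a (129342691 to 129365303, plus) and Clec7a (129461591 to 129472779, minus) belong to a second cluster, and Clec5a (40574894 to 40585821, minus) stands alone. Fcer1g lies on chromosome 1 (171229572 to 171234365, minus) and Tyrobp on chromosome 7 (30413760 to 30417585, plus). The single annotated gene overlapping any of them, a processed pseudogene within Clec4a2, shared 0 exon bases with it and had 0 counts.

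Of the 9 genes, 7 had an upstream sequence in the RefSeq table (GRCm38.p6), and Clec4n and Tyrobp had none. The 250 bases before the start are shown for the 3 receptors with the most RNA per length and for Fcer1g, the adaptor with an entry, to show which myeloid motifs stand before the most abundant members. Capitals mark matches, on either strand, to 4 motifs: a PU.1 core (GAGGAA), a C/EBP motif (TTGCNNAA), an NF-kB motif (GGGA, any base, TT, any base, CC) and an AP-1 motif (TGANTCA).
Clec4d, chr6:123261857-123262106, plus strand: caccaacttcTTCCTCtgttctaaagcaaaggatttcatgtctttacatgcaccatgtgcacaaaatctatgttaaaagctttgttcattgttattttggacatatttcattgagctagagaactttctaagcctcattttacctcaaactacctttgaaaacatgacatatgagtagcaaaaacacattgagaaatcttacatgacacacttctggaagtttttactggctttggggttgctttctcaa
Clec4e, chr6:123289872-123290121, minus strand: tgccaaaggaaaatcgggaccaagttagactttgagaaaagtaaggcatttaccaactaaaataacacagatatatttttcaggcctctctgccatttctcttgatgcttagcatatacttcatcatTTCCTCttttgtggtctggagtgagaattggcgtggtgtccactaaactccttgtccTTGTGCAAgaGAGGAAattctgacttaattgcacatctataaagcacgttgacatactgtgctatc
Clec7a, chr6:129472780-129473029, minus strand: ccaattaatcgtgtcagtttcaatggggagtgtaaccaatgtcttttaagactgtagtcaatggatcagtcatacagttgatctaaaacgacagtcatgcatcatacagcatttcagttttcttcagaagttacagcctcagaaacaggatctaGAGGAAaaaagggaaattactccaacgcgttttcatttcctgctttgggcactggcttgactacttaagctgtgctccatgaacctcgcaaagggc
Fcer1g, chr1:171234350-171234599, minus strand: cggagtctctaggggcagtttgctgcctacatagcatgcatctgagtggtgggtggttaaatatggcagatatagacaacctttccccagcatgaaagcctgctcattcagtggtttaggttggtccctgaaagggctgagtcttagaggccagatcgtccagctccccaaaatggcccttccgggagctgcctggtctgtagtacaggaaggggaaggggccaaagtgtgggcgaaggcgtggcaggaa
The PU.1 core, bound by a factor that specifies myeloid cells, was found in the windows of 5 of the 7 genes with a sequence (Clec4d, Clec4e, Clec7a, Clec5a and Clec12a), against 23.3% of 32851 RefSeq windows of the same length. In Clec4e the start-proximal PU.1 core began 56 bases before the start, and a C/EBP match (on the reverse strand) began 66 bases before it, without sharing a base. The C/EBP motif was in the windows of 2 of the 7 genes (Clec4e and Clec12a), against 9.56% of all windows. The NF-kB motif was in 0 of the 7 (0.98% of all windows) and the AP-1 motif in 1, Clec12a (6.75%). For Clec7a, a second RefSeq start 6 bases away gives the same match. These are matches of letters and not measured binding sites.

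Levels were compared between genes as CPM per kilobase of summed exon length, given as mean ± SD over the 6 libraries. Tyrobp stood highest at 1254 ± 242 CPM per kilobase, followed by Clec4d at 886 ± 98.7. Clec4e was at 416 ± 47.2, Clec7a at 398 ± 49.5 and Fcer1g at 339.6 ± 61.0 CPM per kilobase. Below them stood Clec4n at 140.3 ± 40.9, Clec5a at 46.9 ± 6.35, Clec12a at 26.1 ± 5.15 and Clec4a2 at 14.9 ± 2.34 CPM per kilobase. The ranges over libraries of Tyrobp and Clec4d overlapped, as did those of Clec4e and Clec7a and those of Clec7a and Fcer1g, whereas every other pair of neighbours in this order was separate. Per summed exon length, the activating receptors Clec4d, Clec4e and Clec7a had more RNA than the inhibitory receptors Clec12a and Clec4a2 in all 6 libraries. Clec4n and Clec5a, also activating, stood above both on this scale as well. The place of Clec5a beside Clec12a changed with the length used, as given below, so the set does not split cleanly by kind of receptor. Summed exon length pools the exons of all annotated transcripts and reached 4965 bases for Clec4e and 5528 for Clec12a. Per length of the longest protein-coding transcript, Clec4e was at 821 and Clec12a at 57.6 CPM per kilobase, and Clec12a then stood above Clec5a at 48.1, with the order of the other genes kept. The overlaps changed too on that scale. Clec4e (638 to 889) was separate from Clec7a (411 to 568), and Clec12a (45.7 to 76.3) overlapped with Clec5a (41.5 to 59.0).

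**Figure D1:**
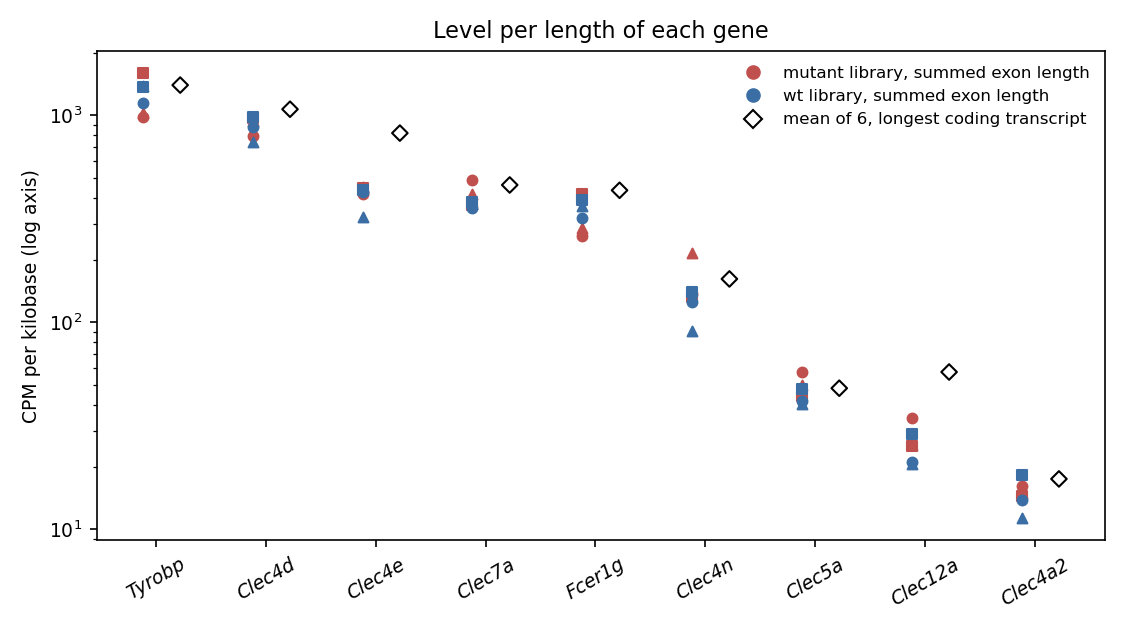
Level of each of the 9 genes in CPM per kilobase on a log axis. Filled points are the 6 libraries scaled by summed exon length (red mutant, blue wt; circle, square and triangle for replicates 1, 2 and 3), and open diamonds are means scaled by the longest coding transcript. Tyrobp and Clec4d lie at the top and Clec4a2, at 14.9 CPM per kilobase, at the bottom.

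In mutants against wt, 0 of the 9 genes passed the adjusted threshold of 0.05 in the edgeR quasi-likelihood fit over all 15774 genes, where 0.00634% passed (1 gene, outside the set). At an unadjusted p under 0.05 there were also 0 of 9 by edgeR, against 6.73% of all tested genes. DESeq2 called 0 of 9, against 0.983% of all tested genes. The 3 mutant and the 3 wt libraries overlapped for each of the 9 genes, whereas they did not overlap for 13% of the tested genes. The 7 receptors had positive log2 fold changes, from 0.06 to 0.44, and the 2 adaptors negative ones. The median over the 9 was 0.15, beside 0.01 over all tested genes, of which 7991 were positive and 7783 negative. In sorted bulk RNA, fewer cells carrying a transcript and less of it per cell cannot be told apart.

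**Figure D2:**
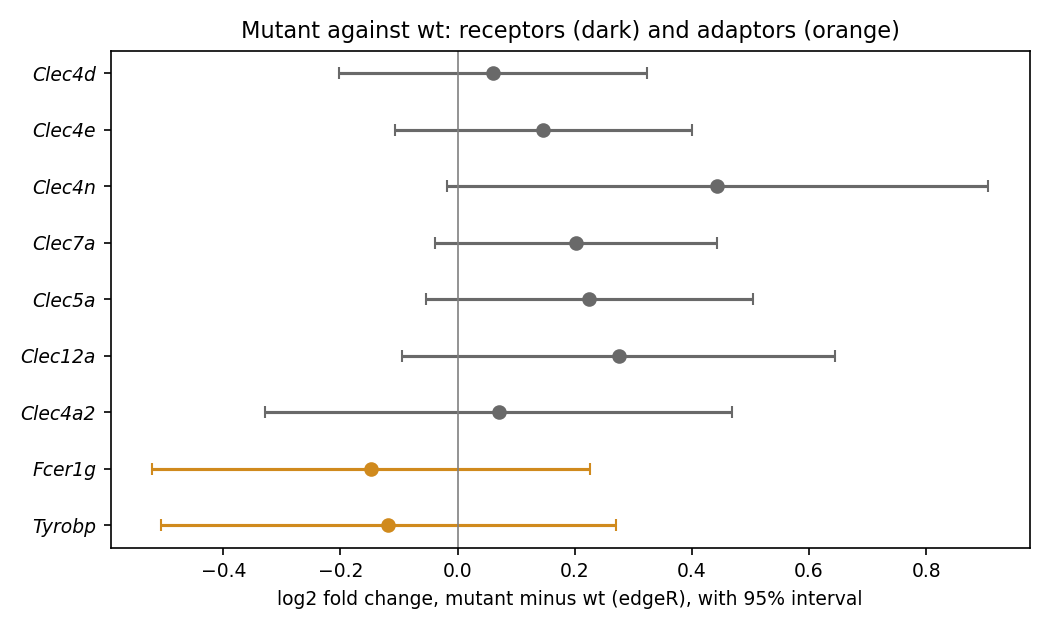
Log2 fold change of each gene, mutant minus wt, by edgeR, with its 95% interval. Each of the 9 intervals includes 0, and that of Clec4n, from -0.02 to 0.91, is the widest upwards.

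Clec4e encodes Mincle, the Fcer1g-coupled receptor for mycobacterial cord factor and for a nuclear protein released by dying cells. It was at 2071, 2207 and 2239 CPM in mutant replicates 1 to 3 and at 2110, 2172 and 1606 CPM in wt replicates 1 to 3. The first 2 wt libraries lay within the mutant range, and wt replicate 3 lay below every other library. Its log2 fold change was 0.15 ± 0.11 (SE), with an adjusted p of 0.917 by edgeR and a 95% interval of 0.928- to 1.32-fold. Without wt replicate 3 the log2 fold change was 0.02, and without wt replicate 2 it was 0.23.

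Clec4d encodes MCL (also called Dectin-3), which associates with Mincle and with the same adaptor. Its libraries were at 1277, 1556 and 1506 CPM in mutants and at 1399, 1574 and 1188 CPM in wt. The 3 mutant libraries lay inside the wt range, which ran from wt replicate 3 to wt replicate 2. The log2 fold change was 0.06 ± 0.12 (SE), with an adjusted p of 0.988 by edgeR and a 95% interval of 0.869- to 1.25-fold, and without wt replicate 3 its sign turned (-0.04). The ratio of Clec4e to Clec4d CPM ran from 1.35 to 1.62 over the 6 libraries, so these neighbouring genes kept a similar proportion in both groups (mean ± SD of 3 libraries, 1.51 ± 0.104 for mutants and 1.41 ± 0.0828 for wt).

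Clec4n encodes Dectin-2, an Fcer1g-coupled receptor for mannose-rich fungal glycans. Of the 9 genes it varied most between libraries, 2.37-fold from lowest to highest. It was at 195, 187 and 306 CPM in mutants and at 179, 198 and 129 CPM in wt libraries. Mutant replicate 3 stood far above the rest and wt replicate 3 far below, while the other 4 libraries lay between 179 and 198 CPM. The log2 fold change was 0.44 ± 0.21 (SE), with an unadjusted p of 0.0582, an adjusted p of 0.765 by edgeR and a 95% interval of 0.987- to 1.87-fold. Without mutant replicate 3 the log2 fold change was 0.18, and without wt replicate 3 it was 0.28. Without wt replicate 2 it was 0.57 (unadjusted p = 0.0369, adjusted p = 0.629, edgeR). The summed CPM of 12 alveolar macrophage markers was also highest in mutant replicate 3 and lowest in wt replicate 3. It was 809.6, 640.0 and 1304 in mutants and 583, 495 and 364 in wt. Chil3, which mouse neutrophils also express, was its largest contributor in every library (372 to 999.65 CPM in mutants and 162 to 319 CPM in wt), and without Chil3 the sum was 289, 268 and 304 in mutants and 264, 231 and 202 in wt. Of the other markers in this list, Car4 (83.8 to 148 CPM) and Siglecf (67.3 to 109 CPM) were the most abundant over the 6 libraries, Marco was at 3.88 to 10.98 CPM, and none was at 0 in all libraries. The part of such cells in the Clec4n counts was not tested.

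Clec7a encodes Dectin-1, the beta-glucan receptor, which carries an ITAM-like motif in its own tail and needs no adaptor. It was at 1292, 977 and 1099.9 CPM in mutants and at 936, 1006 and 987 CPM in wt. The wt libraries were close together, mutant replicates 1 and 3 lay above all of them, and mutant replicate 2 lay among them. Its log2 fold change was 0.20 ± 0.11 (SE), with an adjusted p of 0.808 by edgeR and a 95% interval of 0.974- to 1.36-fold. Without mutant replicate 1 it was 0.09, and without mutant replicate 2 it was 0.29 (unadjusted p = 0.0144, adjusted p = 0.509, edgeR).

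Clec5a encodes MDL-1, which signals through the Tyrobp product and is known as a receptor for dengue virus. It was at 221, 169 and 192 CPM in mutants and at 160.1, 183 and 155 CPM in wt, with 2 mutant libraries above every wt library and the other inside the wt range. The log2 fold change was 0.23 ± 0.13 (SE), with an adjusted p of 0.820 by edgeR and a 95% interval of 0.963- to 1.42-fold. Without mutant replicate 1 it was 0.12, and without mutant replicate 2 it was 0.31 (unadjusted p = 0.0321, adjusted p = 0.611, edgeR).

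The inhibitory receptors gave no call either. Clec12a (MICL), which recognises uric acid crystals and restrains neutrophil activation, was at 191, 140.4 and 142 CPM in mutants and at 117, 159.6 and 114 CPM in wt. Mutant replicate 1 was highest, and wt replicate 2 lay above the other 2 mutant libraries. Its log2 fold change was 0.27 ± 0.17 (SE), with an adjusted p of 0.851 by edgeR and a 95% interval of 0.936- to 1.56-fold. The value was 0.12 without mutant replicate 1 and 0.45 without wt replicate 2 (unadjusted p = 0.0226, adjusted p = 0.570, edgeR). Clec4a2 (DCIR), an ITIM receptor best known from dendritic cells, was the lowest of the set at 47.3, 42.6 and 43.8 CPM in mutants and 40.5, 53.6 and 33.2 CPM in wt. The mutant libraries lay inside the wt range. The log2 fold change was 0.07 ± 0.18 (SE), with an adjusted p of 0.995 by edgeR and a 95% interval of 0.796- to 1.38-fold, and it turned negative (-0.08) without wt replicate 3. Clec4a2 has close paralogs in the same cluster, so its counts are uncertain where reads fit more than 1 of them.

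**Figure D3:**
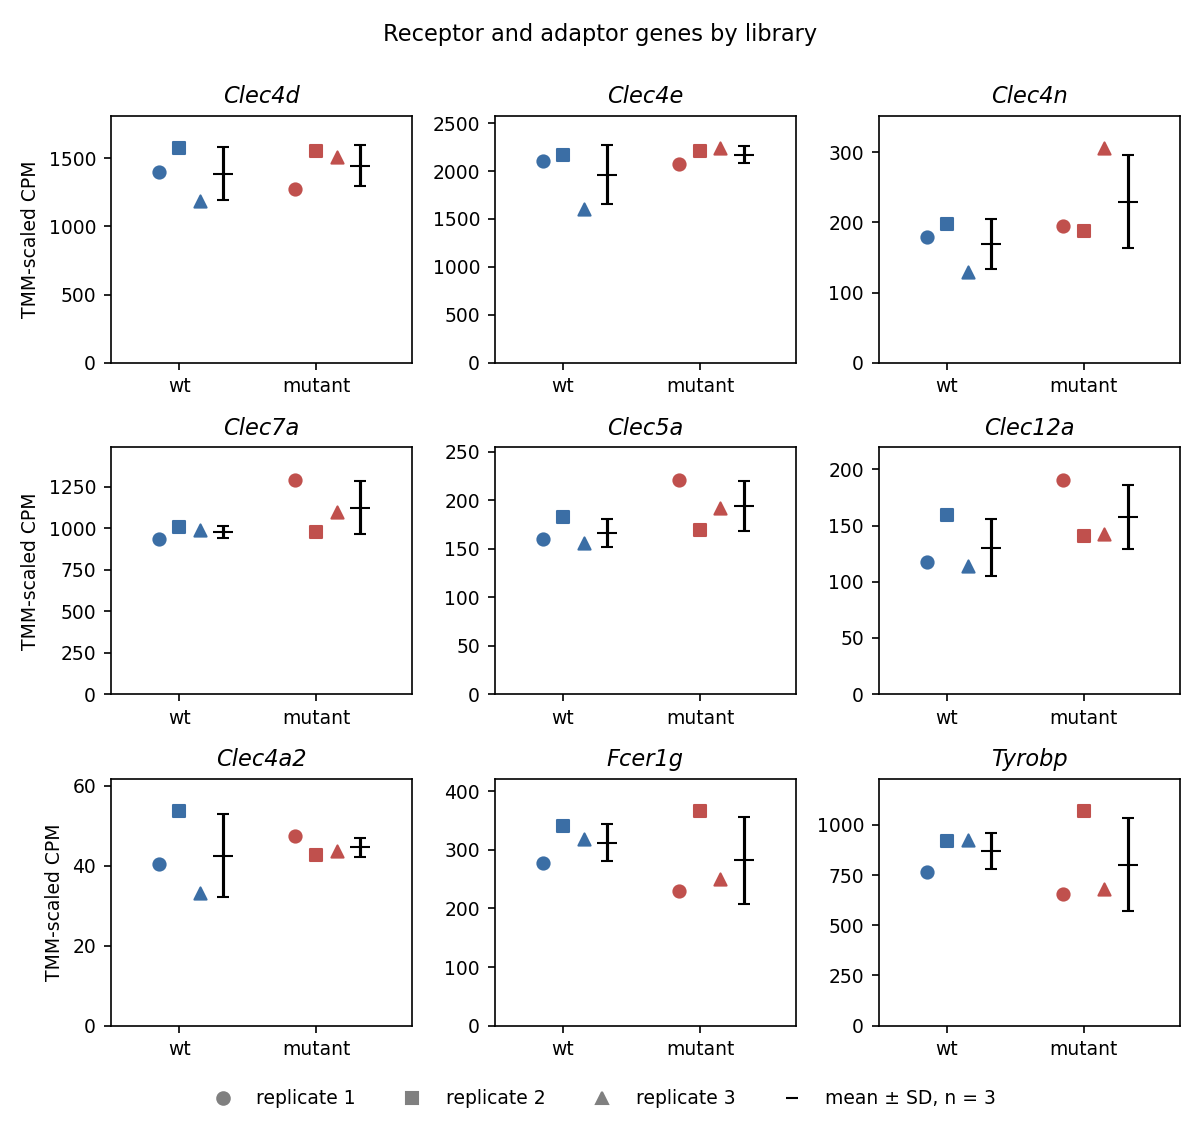
TMM-scaled CPM of each gene in each library on axes that start at 0. Blue points are wt and red points mutant libraries, with circle, square and triangle for replicates 1, 2 and 3 and a black bar for mean ± SD (n = 3). The groups overlap in all 9 panels, and wt replicate 3 is the lowest point for 6 receptors.

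The adaptors behaved differently from the receptors across libraries. Tyrobp was at 655, 1069 and 683 CPM in mutants and at 766, 919 and 925 CPM in wt. Fcer1g was at 229, 366 and 250.4 CPM in mutants and at 278, 340.2 and 318 CPM in wt. For both genes mutant replicates 1 and 3 were the lowest of all libraries and mutant replicate 2 the highest, so the mutant group spanned the wt group. The ratio of Tyrobp to Fcer1g CPM stayed between 2.70 and 2.92 over the 6 libraries, although each gene varied about as much as Clec12a (1.63-fold for Tyrobp and 1.60-fold for Fcer1g from lowest to highest). The log2 fold change was -0.12 ± 0.17 (SE) for Tyrobp, with an adjusted p of 0.970 by edgeR and a 95% interval of 0.704- to 1.21-fold. For Fcer1g it was -0.15 ± 0.17 (SE), with an adjusted p of 0.956 by edgeR and an interval of 0.697- to 1.17-fold. Without mutant replicate 2 both stood at -0.38 (edgeR unadjusted p = 0.00641 and adjusted p = 0.463 for Tyrobp, unadjusted p = 0.011 and adjusted p = 0.480 for Fcer1g). Without mutant replicate 1 they stood at 0.01 for Tyrobp and -0.01 for Fcer1g.

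Both adaptor genes are short, with summed exon lengths of 667 and 874 bases. Among tested genes averaging 10 CPM or more, the 92 other genes under 1000 bases had a median log2 CPM, relative to each gene's own mean, of -0.19, 0.24 and -0.15 in mutant replicates 1 to 3. In wt replicates 1 to 3 that median was -0.08, 0.16 and 0.00. Fcer1g stood at -0.35, 0.32 and -0.23 in the mutant and -0.08, 0.22 and 0.12 in the wt libraries on the same scale. Tyrobp stood at -0.33, 0.38 and -0.27 in the mutant and -0.10, 0.16 and 0.17 in the wt libraries. The order of the mutant libraries was thus the same for the adaptors as for other short genes. The order of the wt libraries was the same for Fcer1g but not for Tyrobp, which was highest in wt replicate 3. The part of gene length in the adaptor values was not tested.

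**Figure D4:**
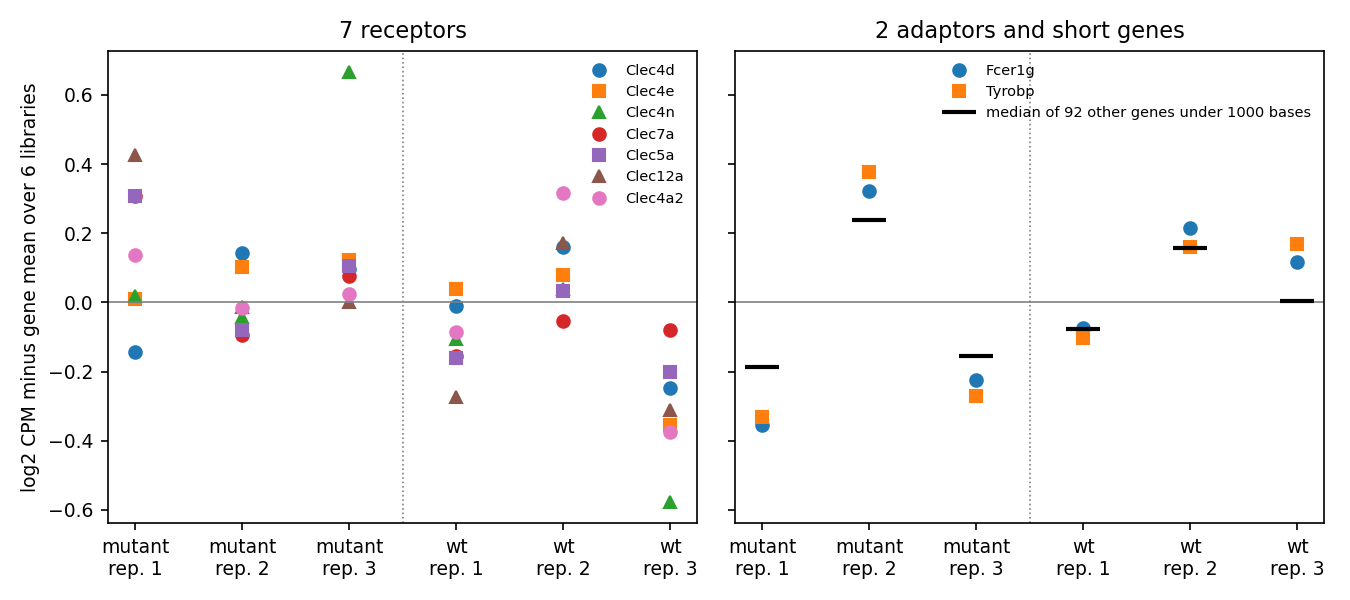
Log2 CPM of each gene minus its mean over the 6 libraries, for the 7 receptors (left) and for the 2 adaptors (right), with black bars for the median of 92 other genes under 1000 bases. The adaptors are highest in mutant replicate 2 and lowest in mutant replicate 1, while 6 receptors are lowest in wt replicate 3.

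Receptor and adaptor levels were also set against each other within each library, as a description. The summed CPM per kilobase of the 3 receptors that pair with the Fcer1g product (Clec4d, Clec4e and Clec4n) was 5.17, 3.70 and 5.61 times that of Fcer1g in mutants and 4.49, 4.01 and 3.18 times in wt libraries. Tyrobp CPM per kilobase was 17.0, 36.4 and 20.4 times that of Clec5a, its partner among these genes, in mutants. In wt it was 27.5, 28.9 and 34.3 times. Both ratios overlapped between the groups, and in both mutant replicate 2 sat apart from the other mutant libraries. Other receptors of the ITAM pathway were left out of both ratios, so neither gives the balance of an adaptor with all its partners. Among those left out, Trem1, chosen after its values were seen, was at 1797 and Fcgr3 at 661 CPM per kilobase (means of 6 libraries).

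The genes whose pattern over the 6 libraries was most like a member's were sought for the 3 members with the largest SD of log2 CPM, by the root mean square difference of log2 CPM after centring, among 6901 other genes averaging 10 CPM or more. For Clec4n these were Tnf (difference 0.05), Utp18 (0.06) and Parl (0.11). Tnf was at 46.1, 42.7 and 69.9 CPM in mutants and 40.5, 48.9 and 28.3 CPM in wt. For Tyrobp they were Tspo (0.03), Psenen (0.03) and Atp6v1f (0.04), and for Clec12a Snx29 (0.05), Nid1 (0.06) and Bdp1 (0.07). With 6 libraries and this many candidates, close matches are a description only.

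Among 37 other C-type lectin receptor genes, 30 were tested and 0 passed over all genes by edgeR, with 22 positive and 8 negative log2 fold changes and a median of 0.10. This list, like the other related lists, was chosen with earlier results of these data known. By edgeR 2 of the 30 were higher and 1 was lower at an unadjusted p under 0.05, where 3.51% of all tested genes were higher and 3.22% lower. DESeq2 called 1 of the 30 higher, Olr1, beside 0.514% of all tested genes. Olr1, the receptor for oxidized LDL, also on chromosome 6, was at 89.8, 96.2 and 109.8 CPM in mutants and 52.6, 68.1 and 51.6 CPM in wt, without overlap (edgeR unadjusted p = 0.000311 and adjusted p = 0.263, DESeq2 adjusted p = 0.000456). Colec12, a scavenger collectin, was at 30.7, 31.0 and 38.3 CPM in mutants and 25.7, 22.4 and 20.3 CPM in wt (edgeR adjusted p = 0.498). Thbd (thrombomodulin), which has a lectin-like domain, was at 242, 252 and 236 CPM in mutants and 306, 275 and 292 CPM in wt (edgeR adjusted p = 0.601). Of the 30, 4 were higher and 2 lower without overlap of the groups, beside 6.82% and 6.21% of all tested genes. These 3 genes, Olr1, Colec12 and Thbd, were among them. None of the 3 passed by edgeR, and Olr1 alone of the 3 passed by DESeq2. Of the remaining Dectin-2 cluster genes, Clec4a1 and Clec4a3 were measured at log2 fold changes of 0.10 and 0.11 with overlapping groups, and Clec4a4, Clec4b1 and Clec4b2 had at most 2.09 CPM in any library.

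Of 27 other genes of receptors and adaptors in or beside the ITAM pathway, 23 were tested, 14 positive and 9 negative, with a median log2 fold change of 0.03. By edgeR and by DESeq2 0 passed over all genes. The groups did not overlap for 1 higher gene, Trem1, and 2 lower ones, beside 6.82% and 6.21% of all tested genes. Trem1, chosen after its values were seen, was at 5461 to 6040 CPM in mutants and 4497 to 5427 CPM in wt (edgeR adjusted p = 0.851). At an unadjusted p under 0.05 by edgeR 1 of the 23 was lower, beside 3.22% of all tested genes. That gene was Fcgr3, the activating IgG receptor whose surface expression needs the Fcer1g product. It was at 967, 1056 and 1106 CPM in mutants and 1309, 1259 and 1185 CPM in wt, without overlap, a log2 fold change of -0.26 ± 0.09 (SE) with an unadjusted p of 0.0134 and an adjusted p of 0.551 by edgeR. Pirb, an inhibitory immunoglobulin-like receptor, was at 1465, 1405 and 1372 CPM in mutants and 1554, 1542 and 1652 CPM in wt, also without overlap (edgeR adjusted p = 0.769). Hcst, which encodes the adaptor DAP10, was at 9.73, 14.5 and 8.37 CPM in mutants and 12.9, 16.02 and 17.2 CPM in wt, with overlapping groups (edgeR adjusted p = 0.791).

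All 35 genes listed for signalling below these receptors were tested, 17 positive and 18 negative with a median of 0.00 on the log2 scale. By edgeR and by DESeq2 0 passed. Without overlap of the groups, 0 of the 35 were higher and 2 lower, beside 6.82% and 6.21% of all tested genes. At an unadjusted p under 0.05 by edgeR 1 of the 35 was lower, beside 3.22% of all tested genes. It was Syk, the kinase that binds phosphorylated ITAMs. Syk was at 848, 825 and 746 CPM in mutants and 1061, 942 and 936 CPM in wt, and every mutant library lay below every wt library. Its log2 fold change was -0.28 ± 0.09 (SE), with an unadjusted p of 0.0131 and an adjusted p of 0.551 by edgeR. The tyrosine kinase gene Src was low, at 2.96, 4.74 and 5.91 CPM in mutants and 2.69, 3.63 and 1.78 CPM in wt (edgeR adjusted p = 0.816). Malt1, the protease of the CARD9 complex, was at 124, 112 and 104 CPM in mutants and 106, 101 and 83.0 CPM in wt (edgeR adjusted p = 0.824). The groups overlapped for both. Card9, chosen after its values were seen, was at 38.3, 37.0 and 37.9 CPM in mutants and 39.0, 40.5 and 45.4 CPM in wt (edgeR adjusted p = 0.938), the other gene of this list without overlap.

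Of 20 genes known to be induced through C-type lectin receptors, 17 were tested, 13 positive and 4 negative, with a median log2 fold change of 0.37. This list and the marker lists given below were chosen with earlier results of these data known. Their shares beside all tested genes are therefore a description only. By edgeR 0 passed over all genes and 5 of the 17 were higher at an unadjusted p under 0.05, beside 3.51% of all tested genes. By DESeq2 3 of the 17 were called higher, beside 0.514% of all tested genes. Those 3 were Egr2, Il1a and Egr3, which also had the smallest edgeR p of the list (DESeq2 adjusted p = 0.000402, 0.00104 and 0.0138). The immediate early transcription factor gene Egr2 was at 26.4, 22.4 and 31.6 CPM in mutants and 10.8, 12.98 and 13.9 CPM in wt (edgeR adjusted p = 0.253). Il1a, an agonist of the IL-1 receptor, was at 78.3, 105 and 95.2 CPM in mutants and 44.5, 63.3 and 42.3 CPM in wt (adjusted p = 0.276, edgeR). Egr3 was at 5.25, 5.73 and 9.47 CPM in mutants and 2.36, 2.54 and 1.69 CPM in wt (adjusted p = 0.294, edgeR). Mutants lay above wt without overlap for these genes, and many other stimuli are known to induce them. The summed CPM of the whole list overlapped, at 22707 to 28152 in mutants and 24869 to 25772 in wt. Il1b, its most abundant gene, had a log2 fold change of -0.06. In the same libraries the summed mutant CPM of 10 alveolar epithelial markers (629 to 1116, against 347 to 637 in wt) overlapped with wt, and that of 8 fibroblast markers (485 to 789, against 376 to 444 in wt) did not. The alveolar macrophage sum given beside Clec4n did not overlap either (640.0 to 1304 in mutants, against 364 to 583 in wt), with 11 of its 12 genes positive. At an unadjusted p under 0.05 by edgeR, 7 of 9 tested epithelial, 5 of 8 fibroblast and 4 of 12 alveolar macrophage genes were higher, beside 3.51% of all tested genes. The part of these cells in the induced genes was not tested.

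**Figure D5:**
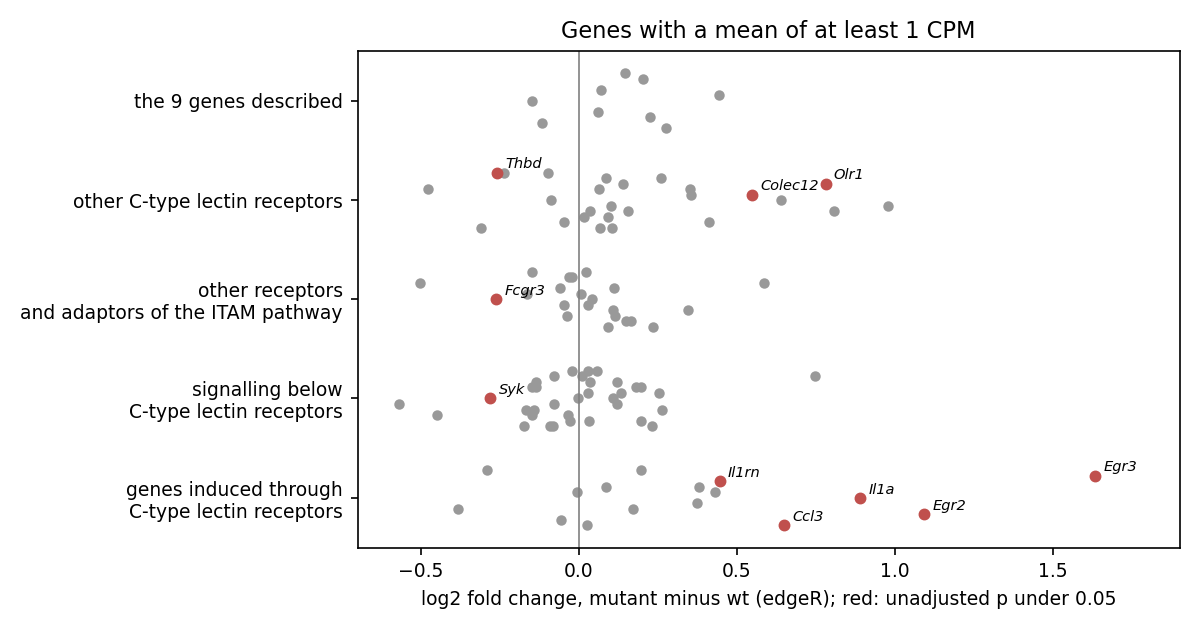
Log2 fold change, mutant minus wt, of genes averaging 1 CPM or more in the 9 genes described and in 4 lists of related genes; the vertical scatter within a list has no meaning. Red points have an unadjusted p under 0.05 by edgeR, which holds for 0 of the 9 genes described.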

How the data were processed

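The authors deposited 1 table of raw read counts per gene, not normalized, for 6 libraries. Library construction, per the labels' protocols, started from 2 ng of RNA and used SMART-Seq v2, which does not mark strand, and Nextera XT. The notes on processing by the submitters name STAR, featureCounts and GRCm38. Their versions, annotation and strand option are not given in the sources available. Symbols came from GENCODE M21 (55094 identifiers matched exactly, 300 without version, 93 not at all). Summed exon lengths are per the file headers. Counts without molecular identifiers include PCR copies.

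Genes were kept by filterByExpr (minimum count 10), scaled by TMM and tested with edgeR 4.0.16 (R 4.3.3), quasi-likelihood, Benjamini-Hochberg over all 15774 genes at 0.05. The fits were checked on simulated counts with less spread than the common spread of these data. The planted changes were larger than those of the genes described, so the check does not cover differences of that size. SE was derived from the fold change and the F statistic. Replicate numbers follow accession order. Alternatives were DESeq2 (1.42.0), limma-voom (limma 3.58.1), other scalings and filters, and leaving out each library; the transcript-length scaling was added after the values were seen. Named from each related list were genes past the threshold and the 3 with the smallest p and a mean of at least 1 CPM. Members, 4 related lists and 13 marker lists were chosen with earlier results of these data known.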

Additional observations from a re-analysis of the deposited data

How the results depend on the processing

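Under 12 alternatives for each of the 9 genes, 105 of 108 log2 fold changes kept their direction and 0 passed the adjusted threshold, with a lowest adjusted p of 0.397 (Clec4n with no filter on low counts). The 3 that reversed did so on leaving out 1 library: Clec4d (-0.040 without wt replicate 3, range over left-out libraries -0.040 to 0.16), Clec4a2 (-0.081 without wt replicate 3, range -0.081 to 0.27) and Tyrobp (0.012 without mutant replicate 1, range -0.38 to 0.012). For Clec4n the unadjusted p was under 0.05 in 7 of the 12 alternatives, among them edgeR on all 6 libraries with no filter (0.00776) and with genes averaging 10 CPM or more (0.02997), beside 0.0582 with the filter used in the report. Over all tested genes edgeR called 1 higher and 0 lower. DESeq2's Wald test called 81 and 74, edgeR with no filter on low counts 41 and 29, and edgeR on genes averaging 10 CPM or more 14 and 4; the cause was not tested. Leaving out each library gave 0 to 1 higher and 0 to 1 lower. The genes described had 1061 to 74915 counts per library, PCR copies included. No paired analysis was possible because replicate numbers follow accession order and pair nothing. Per length of the longest coding transcript, added after the values were seen, the level moved beyond its SD for 6 of the 9 genes.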

Other observations

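Several of the receptors and both adaptors are also expressed by other blood and lung cells, so marker lists of those cells are given as summed CPM over each library. Monocyte and interstitial macrophage markers summed to 1099 to 1147 CPM in mutants and 1116 to 1182 CPM in wt, with Csf1r and Apoe the most abundant; of these, 0 of 12 members had an unadjusted p under 0.05 by edgeR. Dendritic cell markers summed to 44.3 to 57.4 and 41.0 to 49.6 CPM, NK cell markers to 20.8 to 35.98 and 26.1 to 42.7 CPM, and T cell markers to 19.3 to 26.8 and 14.1 to 30.1 CPM in mutants and wt. Mast cell and basophil markers summed to 129.6 to 156.8 and 139.7 to 186 CPM, nearly all of it from Kit and Gata2. Fcer1a and Tpsb2 had 0 counts in all 6 libraries, and Mcpt8 and Ms4a2 had counts in mutant replicate 2 alone. Cpa3 was at 0.305 to 0.769 CPM over the 6 libraries. Cma1 was at 0 to 0.166 CPM in mutants and 0.462 to 1.75 CPM in wt (edgeR adjusted p = 0.593). Eosinophil markers summed to 71.7 to 116 and 84.3 to 88.7 CPM, mostly Siglecf. Epx and Prg3 had 0 counts in all 6 libraries, and Ear6 and Prg2 had counts in 1 library each. Ccr3 was at 3.47 to 8.82 CPM over the 6 libraries, Il5ra at 0 to 1.46 CPM and Alox15 at 0 to 1.55 CPM. B and plasma cell markers summed to 49.6 to 69.5 and 33.5 to 57.1 CPM, endothelial markers to 1102 to 1349.8 and 1220.2 to 1499.8 CPM, and platelet and erythrocyte markers to 9.23 to 16.6 and 8.52 to 12.2 CPM. The part of these cells in the receptor and adaptor counts was not tested.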
